A study of Arabidopsis thaliana with 12 samples.

Results

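The effect of CHLM overexpression was set against the effect of CHLD reduction in the green parts of Arabidopsis thaliana seedlings aged 3 weeks, each effect first taken against wild type given the same inducer. CHLD and CHLM act at neighbouring steps of chlorophyll synthesis: CHLD is part of magnesium chelatase, the enzyme that places magnesium in protoporphyrin, and CHLM is the methyltransferase that takes over its product. Protoporphyrin intermediates are light-sensitizing, and changes in this branch are known to be accompanied by altered expression of nuclear genes. Whether raising one enzyme and lowering the other moves the same genes is the question this comparison addresses.

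All 12 of the 12 Affymetrix ATH1 arrays entered the comparison, with 3 biological replicates in each of 4 groups taken from the sample titles. The CHLM group was a line with a CHLM overexpressor switched on by 20 µM β-estradiol, and its control was Col-0 given the same β-estradiol. The CHLD group was a line with an RNA interference (RNAi) construct against CHLD switched on by 20 µg/ml dexamethasone, and its control was Col-0 given the same dexamethasone. All plants were of the Col-0 ecotype and were grown on soil in 10 h light and 14 h dark at 23 °C. The Col-0 controls received the inducer but are not described as carrying an empty construct, and the labels do not say how many independent lines or plants stand behind a group. A difference of effects is the log2 difference between the CHLM line and Col-0 under estradiol minus the log2 difference between the CHLD line and Col-0 under dexamethasone. It is positive where the CHLM effect is the higher. A gene was called where the adjusted p of limma, a linear model with a shared estimate of spread, was under 0.05 over all 22746 probe sets. Because whole green tissue was measured, fewer cells of a type and less RNA per cell cannot be told apart.

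The arrays had medians between 6.26 and 6.32 on the log2 scale, and correlations between arrays over all probe sets ran between 0.983 and 0.997. One array, Col-0 estradiol replicate 1, lay apart: it was correlated at 0.990 with both other replicates of its group, while the lowest correlation within the other 3 groups was 0.994. It was correlated at 0.993 to 0.994 with the 3 Col-0 dexamethasone arrays. CHLM itself, the targeted gene of the overexpressor, read 14.48, 13.96 and 14.24 in the CHLM line, against 11.71, 11.72 and 11.68 in Col-0 under estradiol. It read 11.86, 11.55 and 11.55 in the CHLD line, against 11.55, 11.80 and 11.74 in Col-0 under dexamethasone. CHLM transcript was therefore raised in the line built to overexpress it, while the CHLD line differed from its control by -0.04 (limma adjusted p = 0.886). The highest CHLM reading lay close to 14.49, the highest value on any array. CHLD had no probe set assigned to it alone here, so the reduction of its own transcript is not analysed here. As a check on the labelled tissue, the 10 measured nuclear genes of photosynthesis lay at mean log2 signals between 6.69 and 13.90, and the difference of effects was between -0.11 and 0.25 for all of them. Of the listed markers of other cell types, only FMA, a regulator of guard cell formation, had a probe set of its own, at 6.01, 6.27 and 6.03 in the CHLM line, 6.23, 6.40 and 6.35 in Col-0 under estradiol, 6.12, 5.79 and 5.92 in the CHLD line and 6.18, 6.40 and 6.38 in Col-0 under dexamethasone. It fell by 0.38 in the CHLD line (limma adjusted p = 0.0361), a call lost without CHLD replicate 2 or 3 or Col-0 dexamethasone replicate 2 or 3 (limma adjusted p between 0.0896 and 0.141). The CHLM effect of -0.22 did not pass (limma adjusted p = 0.22), nor did the difference of 0.15, and the part of this cell type in the results was not tested.

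Most genes that moved in both lines moved the same way. The set whose effects differed was small and consisted mostly of rises past the threshold in the CHLD line alone. The effects differed for 256 probe sets, which is 1.13% of those tested. Of these, 200 (0.879% of those tested) had a negative difference and 56 (0.246%) a positive one, so most were lower relative to control in the CHLM line than in the CHLD line. A difference of at least 2-fold was found for 147 probe sets (0.646%), 129 of them negative and 18 positive. The CHLM effect passed the threshold on 2217 probe sets (9.75%) and the CHLD effect on 2822 (12.4%). Of the 1070 that passed for both, 22 moved in opposite directions and 1048 the same way. The effects were correlated at 0.54 across probe sets, which are not independent, and at 0.44 without replicate 1 of Col-0 under estradiol.

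Being past the threshold in 1 line only did not by itself mean that the effects differed. Of 1147 probe sets past the threshold in the CHLM line and not in the CHLD line, the difference passed for 49, or 4.27%. Of 1752 past the threshold in the CHLD line and not in the CHLM line, it passed for 176, or 10.0%. Among the 1048 that moved the same way, it passed for 9. The median standard error was 0.154 for the difference and 0.109 for the CHLM effect, so the difference was measured less precisely than either effect.

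The 256 probe sets were sorted by the line in which they moved. The class that changed in the CHLD line only held 176, of which 146 rose there and 30 fell, and 146 of the 176 had a CHLM effect whose 95% confidence interval stayed within 1.5-fold of no change. A further 49 changed in the CHLM line only, 33 falling and 16 rising, and 33 of these 49 had a CHLD effect within 1.5-fold. The opposite-direction class held 22, of which 17 were lower in the CHLM line and higher in the CHLD line and 5 the reverse. Another 9 moved the same way by different amounts. A single gene was assigned to 120 of the 256 probe sets, namely 87 of the CHLD-only class, 21 of the CHLM-only class, 7 of the opposite class and 5 of the same-direction class. Genes are named by symbol, or by locus code where the reference gives none, and no role is given for a gene known only by its code.

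**Figure D1:**
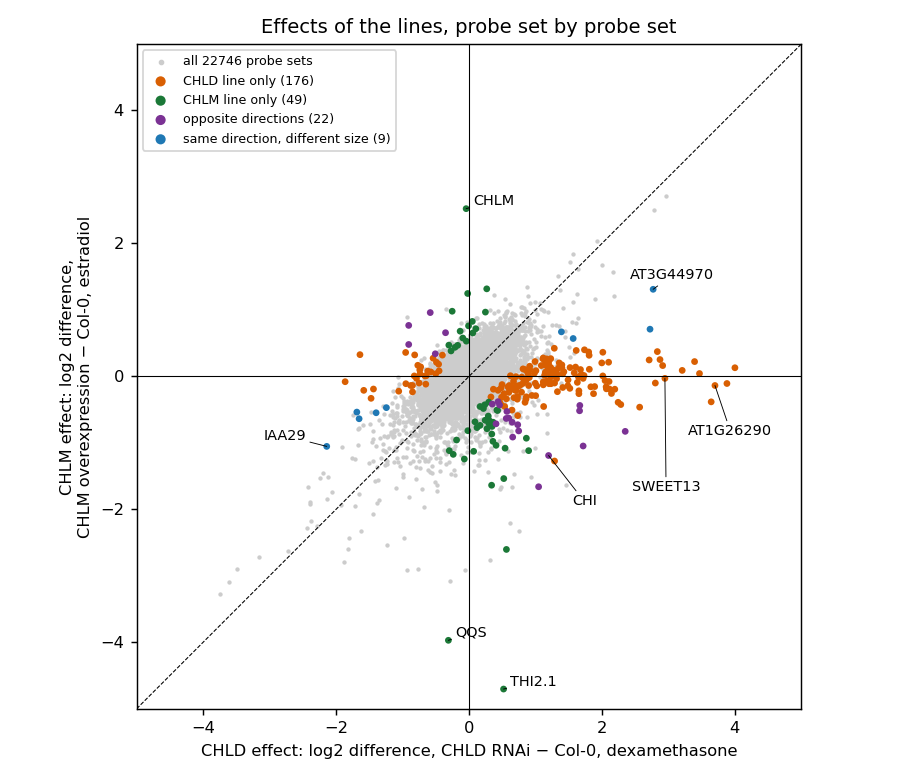
Each point is a probe set, with the CHLD effect (log2 difference, CHLD RNAi line minus Col-0 under dexamethasone) on the x axis and the CHLM effect (log2 difference, CHLM overexpression line minus Col-0 under estradiol) on the y axis; the dashed line marks equal effects. The 176 CHLD-only probe sets have CHLM effects between -1.27 and 0.42, and the 49 CHLM-only ones have CHLD effects between -0.31 and 0.90. Most of the 22 opposite ones lie at lower right.

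Probe sets that moved in opposite directions were mostly lower in the CHLM line and higher in the CHLD line (17 of 22). Negative differences were likewise most of all calls (200 of 256), so this lean is not particular to the class. CHI, which the reference annotates as a chitinase, an enzyme class that cleaves the chitin of fungal walls, had the largest named difference. It read 6.44, 6.26 and 6.60 in the CHLM line, against 8.29, 7.32 and 7.26 in Col-0 under estradiol. In the CHLD line it read 7.87, 8.08 and 7.78, against 6.82, 6.83 and 6.49 in Col-0 under dexamethasone. Neither line overlapped its own control, and the CHLM line lay below its control while the CHLD line lay above. CHI was thus 2.28-fold lower in the CHLM line and 2.29-fold higher in the CHLD line, a difference of effects of -2.39 ± 0.30 (SE) with limma adjusted p = 6.06e-04. Both sides entered this difference. The lines differed directly by -1.48 (limma adjusted p = 8.46e-04) and the Col-0 groups by 0.91 (limma adjusted p = 0.138). Without Col-0 estradiol replicate 1, the highest of its group, the difference of effects was -2.05.

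The chitinase was not alone in this direction. AT1G65920 read 4.91, 4.97 and 4.98 in the CHLM line and 5.64, 5.36 and 5.41 in its control, and 6.80, 7.39 and 7.07 in the CHLD line and 5.54, 5.42 and 5.31 in its control. Its rise in the CHLD line, 3.17-fold, was larger than its fall in the CHLM line, 1.43-fold, and the difference was -2.18 ± 0.18 (limma adjusted p = 7.86e-06). The Col-0 groups of this gene differed by 0.05.

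AT3G51660 read 7.76, 7.21 and 7.43 in the CHLM line and 8.0, 8.11 and 8.17 in its control, and 8.44, 8.75 and 9.08 in the CHLD line and 8.07, 8.27 and 8.14 in its control, with a difference of -1.22 ± 0.22 (limma adjusted p = 0.00999). AT1G26450 read 5.12, 5.22 and 5.28 in the CHLM line and 5.72, 5.80 and 5.68 in its control, and 6.10, 6.40 and 6.56 in the CHLD line and 5.73, 5.86 and 5.76 in its control, with a difference of -1.10 ± 0.15 (limma adjusted p = 0.00146). In both genes each line was clear of its control and the Col-0 groups lay within 0.07 of each other.

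ECS1 and EXPB1 moved less, and their Col-0 groups lay apart, as did those of CHI. ECS1, one of the brightest of the class, read 12.82, 12.75 and 13.07 in the CHLM line and 13.19, 13.39 and 13.35 in its control, and 13.21, 13.07 and 13.19 in the CHLD line and 12.60, 12.86 and 12.63 in its control (difference -0.89 ± 0.15, limma adjusted p = 0.00682). EXPB1, a beta-expansin that loosens cell walls, read 6.66, 6.63 and 7.0 in the CHLM line and 7.13, 7.16 and 7.25 in its control, and 6.81, 6.92 and 6.67 in the CHLD line and 6.40, 6.46 and 6.49 in its control (difference -0.77 ± 0.15, limma adjusted p = 0.0192). For EXPB1 the 2 lines were nearly level, at a direct difference of -0.04 on the log2 scale, and the Col-0 groups differed by 0.73, so its opposite effects rest on the Col-0 groups. For ECS1 the lines differed directly by -0.28 (limma adjusted p = 0.176) and the Col-0 groups by 0.61 (limma adjusted p = 0.0501). The call for EXPB1 was lost without any of 6 arrays (CHLM line replicates 1 and 2, Col-0 estradiol replicate 3, CHLD line replicate 2, and Col-0 dexamethasone replicates 1 and 2), with limma adjusted p between 0.0514 and 0.0616.

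P1R1 was the only named gene of the class that moved the other way. It read 8.50, 8.38 and 8.39 in the CHLM line and 8.06, 8.09 and 8.10 in its control, and 7.84, 7.90 and 8.14 in the CHLD line and 8.49, 8.44 and 8.47 in its control. Each line was clear of its control, and the difference was 0.85 ± 0.13 (limma adjusted p = 0.00258). The lines differed directly by 0.46 for this gene and the Col-0 groups by -0.38. Of the 22 opposite probe sets, 19 kept their difference past the threshold without each of the 12 arrays in turn, while 8 stayed in the opposite class each time, with both effects past their own thresholds as well. CHI and AT1G26450 were among these 8. The CHLM effect of P1R1 lost its call without any of the CHLM or Col-0 estradiol arrays (limma adjusted p between 0.0516 and 0.0998), and that of AT1G65920 without Col-0 estradiol replicate 1 or without replicate 1 or 2 of the CHLM line (0.0559 to 0.0758). AT3G51660 lost its CHLM call without replicate 2 or 3 of either estradiol group (0.0549 to 0.083), and its CHLD call without CHLD replicate 2 or 3 or Col-0 dexamethasone replicate 1 or 3 (0.0595 to 0.0856). ECS1 lost its CHLM call without Col-0 estradiol replicate 2 or 3 or without replicate 1 or 2 of the CHLM line (0.0616 to 0.0788), and its CHLD call without Col-0 dexamethasone replicate 1 (0.0562). EXPB1 stayed opposite only without CHLM replicate 3, CHLD replicate 3 or Col-0 estradiol replicate 1.

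**Figure D2:**
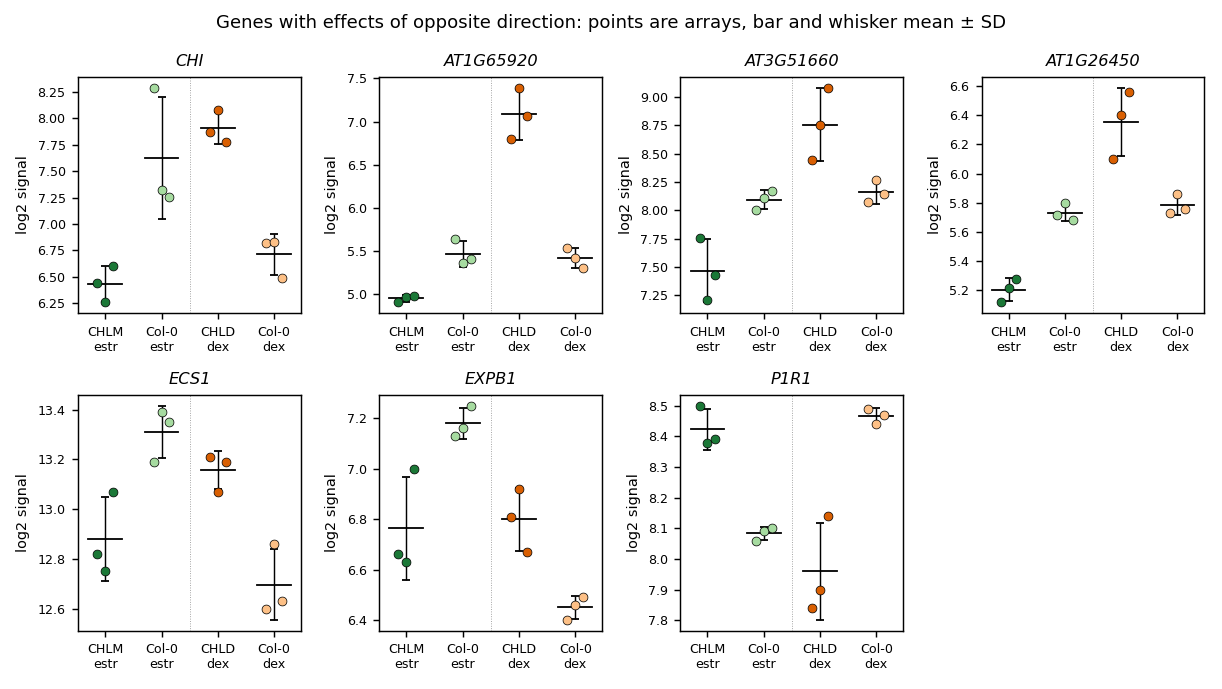
Log2 signal of the 7 named genes with effects of opposite direction, 1 panel per gene, with the CHLM line and Col-0 under estradiol (estr) left of the dotted line and the CHLD line and Col-0 under dexamethasone (dex) right of it. Points are arrays, bars are group means and whiskers 1 SD over 3 arrays; 6 genes are lower in the CHLM line and higher in the CHLD line than in Col-0, and P1R1 is the reverse.

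The opposite probe sets without a single gene included the largest difference of the class. The one with the lowest negative difference read 5.73, 6.06 and 5.86 in the CHLM line and 6.90, 6.63 and 6.60 in its control, and 9.29, 9.32 and 8.86 in the CHLD line and 6.92, 6.73 and 6.77 in its control (difference -3.18, limma adjusted p = 3.83e-07). The one with the highest positive difference read 5.80, 5.67 and 6.04 in the CHLM line and 5.0, 5.06 and 5.15 in its control, and 4.21, 3.81 and 4.54 in the CHLD line and 4.98, 5.02 and 5.28 in its control (difference 1.67, limma adjusted p = 9.02e-04). These probe sets were picked out after their values were seen.

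Several of the largest differences belonged to genes that rose in the CHLD line and stayed near control in the CHLM line. AT3G61490 read 6.59, 6.46 and 6.87 in the CHLM line and 6.86, 7.11 and 7.10 in its control, but 11.15, 11.28 and 10.68 in the CHLD line and 7.04, 7.65 and 7.49 in its control. AT1G26290 read 4.72, 4.13 and 4.59 in the CHLM line and 4.66, 4.77 and 4.42 in its control, but 8.40, 8.52 and 8.15 in the CHLD line and 4.57, 4.75 and 4.65 in its control. The CHLD arrays of both genes lay more than 3 log2 units above every other array. The differences were -4.03 ± 0.25 for AT3G61490 and -3.84 ± 0.21 for AT1G26290.

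SWEET13, a sugar transporter of the SWEET family that exports sucrose, read 6.44, 6.39 and 6.67 in the CHLM line and 6.48, 6.36 and 6.75 in Col-0 under estradiol. Its values were 9.13, 9.19 and 8.88 in the CHLD line and 6.54, 5.88 and 5.94 in Col-0 under dexamethasone. The CHLM line overlapped its control, the CHLD line was 7.71-fold higher than its own, and the difference was -2.98 ± 0.23 (limma adjusted p = 3.23e-06).

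JMT, the methyltransferase that makes methyl jasmonate, read 4.40, 4.24 and 4.30 in the CHLM line and 4.98, 4.55 and 4.58 in its control. It read 6.31, 5.85 and 6.47 in the CHLD line and 3.82, 4.26 and 3.82 in its control. Its CHLM arrays lay below their control without passing the threshold (limma adjusted p = 0.155), and it was 4.73-fold higher in the CHLD line. The difference was -2.63 ± 0.23 (limma adjusted p = 1.26e-05).

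EXPA9, an alpha-expansin, read 5.96, 5.94 and 5.89 in the CHLM line and 5.66, 5.94 and 5.77 in its control, and 7.01, 7.12 and 7.31 in the CHLD line and 5.57, 5.45 and 5.61 in its control. It was clear of its control in the CHLD line only, and the difference was -1.46 ± 0.14 (limma adjusted p = 3.15e-05). The other rises chosen by size were AT1G80280 (CHLM effect 0.22, CHLD effect 3.39), AT3G19430 (0.09 and 3.21), AT3G14395 (0.25 and 2.87) and AT4G14815 (-0.10 and 2.80), all on the log2 scale. All 9 genes named in this class so far kept their call without each of the 12 arrays in turn.

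Of the 11 CHLD-only rises with a gene symbol, 10 kept their call without each array in turn, and 7 of them have not yet been described. These 7 were chosen after their values were seen, because a symbol allows a role to be given. ATMPK13, a mitogen-activated protein kinase, had a CHLM effect of 0.37 and a CHLD effect of 2.83. FMO, annotated as a flavin monooxygenase, had effects of -0.26 in the CHLM line and 2.14 in the CHLD line. PMEPCRF, a pectin methylesterase that modifies the cell wall, had effects of -0.26 in the CHLM line and 1.87 in the CHLD line. CHIL, a chalcone isomerase-like protein of the flavonoid pathway, had a CHLM effect of 0.36 and a CHLD effect of 2.01. LCD, an L-cysteine desulfhydrase, read 7.30, 7.40 and 7.23 in the CHLM line and 7.36, 7.27 and 7.18 in its control, and 8.79, 8.87 and 8.92 in the CHLD line and 7.44, 7.48 and 7.43 in its control. PUB25, a U-box ubiquitin ligase, and ATL4H had CHLM effects of 0.13 and -0.02 and CHLD effects of 1.40 and 0.91. The limma adjusted p of the difference was between 1.35e-06 for FMO and 0.0062 for ATL4H.

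Falls in the CHLD line only were fewer and smaller. AT5G02540 read 7.56, 7.49 and 7.74 in the CHLM line and 6.98, 7.35 and 7.38 in its control, and 6.28, 6.03 and 6.79 in the CHLD line and 7.28, 7.49 and 7.19 in its control (difference 1.31 ± 0.24, limma adjusted p = 0.0104). AT4G01460 had effects of 0.17 in the CHLM line and -0.77 in the CHLD line (difference 0.94 ± 0.15, limma adjusted p = 0.00359). Both kept their call without each of the 12 arrays.

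The remaining falls chosen by size lost their call without 1 or more of the 12 arrays. AT3G62950 had the widest difference of them (1.97 ± 0.40, limma adjusted p = 0.0261), but CHLD replicate 2 read 3.54 while replicates 1 and 3 read 4.54 and 4.72. Its call was lost without CHLM replicate 2, Col-0 estradiol replicate 2 or 3, or any Col-0 dexamethasone array, with limma adjusted p between 0.0511 and 0.0834, and under the robust version of the test (limma adjusted p = 0.135). AT3G62160 (difference 0.70) lost its call without Col-0 dexamethasone replicate 3 (limma adjusted p = 0.0560). AT5G11420 (difference 0.67) lost it without CHLM replicate 1 or 2, Col-0 estradiol replicate 2 or 3, CHLD replicate 2 or 3, or Col-0 dexamethasone replicate 3 (limma adjusted p between 0.0502 and 0.0705). AT1G69580 (difference 0.71) held without 4 of the 12 arrays, namely CHLM replicate 3, Col-0 estradiol replicates 1 and 2, and CHLD replicate 2, and otherwise had limma adjusted p between 0.0514 and 0.0841. AT2G47880 (difference 0.54, limma adjusted p = 0.0427) held only without CHLD replicate 1, and without each of the others its limma adjusted p was between 0.0517 and 0.118.

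In the CHLM line alone, CHLM itself had the highest rise, and THI2.1 and QQS had the deepest falls. QQS, a gene with an effect on leaf starch content, read 5.04, 5.03 and 5.33 in the CHLM line and 9.14, 9.03 and 9.14 in Col-0 under estradiol. It read 9.30, 8.61 and 8.91 in the CHLD line and 9.41, 9.32 and 9.02 in Col-0 under dexamethasone. All 3 CHLM arrays lay over 3 log2 units below the other 9, a 15.7-fold fall, whereas the CHLD arrays overlapped their control (CHLD effect -0.31, limma adjusted p = 0.22). Without CHLD replicate 1 the CHLD effect was -0.49 and passed (limma adjusted p = 0.047), so QQS then counted as falling in both lines by different amounts. The difference was -3.66 ± 0.22 (limma adjusted p = 3.83e-07), and that of CHLM was 2.57 ± 0.18 (limma adjusted p = 1.44e-06).

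THI2.1, a thionin of the jasmonate-linked defence response, had the largest difference in size, -5.22 ± 1.17. It read 4.16, 4.04 and 4.21 in the CHLM line, against 6.48, 10.05 and 9.99 in Col-0 under estradiol, so replicate 1 of that control lay more than 3 log2 units below the other replicates of its group. It read 6.12, 8.41 and 7.99 in the CHLD line and 6.48, 8.40 and 6.08 in Col-0 under dexamethasone, and those groups overlapped. The limma adjusted p of 0.0485 was lost without any of the CHLM arrays, Col-0 estradiol replicate 2 or 3, CHLD replicate 2 or 3, or Col-0 dexamethasone replicate 1 or 3, at 0.0908 to 0.146, and was 0.256 under the robust version of the test. Without Col-0 estradiol replicate 1 the difference was -6.40.

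EXPA8, another alpha-expansin, read 9.01, 8.98 and 9.23 in the CHLM line and 9.88, 9.73 and 9.68 in its control, and 10.42, 10.37 and 10.28 in the CHLD line and 9.81, 10.24 and 9.93 in its control. Each line was clear of its control in a different direction, but the CHLD effect of 0.36 missed the threshold (limma adjusted p = 0.052). The difference was -1.05 ± 0.16 (limma adjusted p = 0.0033) and held without each of the 12 arrays. The CHLD effect passed without CHLM replicate 3, Col-0 estradiol replicate 1 or Col-0 dexamethasone replicate 2 (limma adjusted p between 0.0189 and 0.0457), which made EXPA8 an opposite-direction gene.

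Apart from CHLM, LCR68, a plant defensin also known as PDF2.3, was the only CHLM-only rise named here that has a gene symbol. It read 11.94, 11.54 and 11.82 in the CHLM line and 10.91, 10.91 and 11.0 in its control, and 10.95, 10.95 and 10.88 in the CHLD line and 10.75, 10.91 and 10.97 in its control. The CHLM arrays lay above the other 9, and the difference was 0.78 ± 0.15 (limma adjusted p = 0.0153). The call was lost without Col-0 dexamethasone replicate 3 (limma adjusted p = 0.0548).

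**Figure D3:**
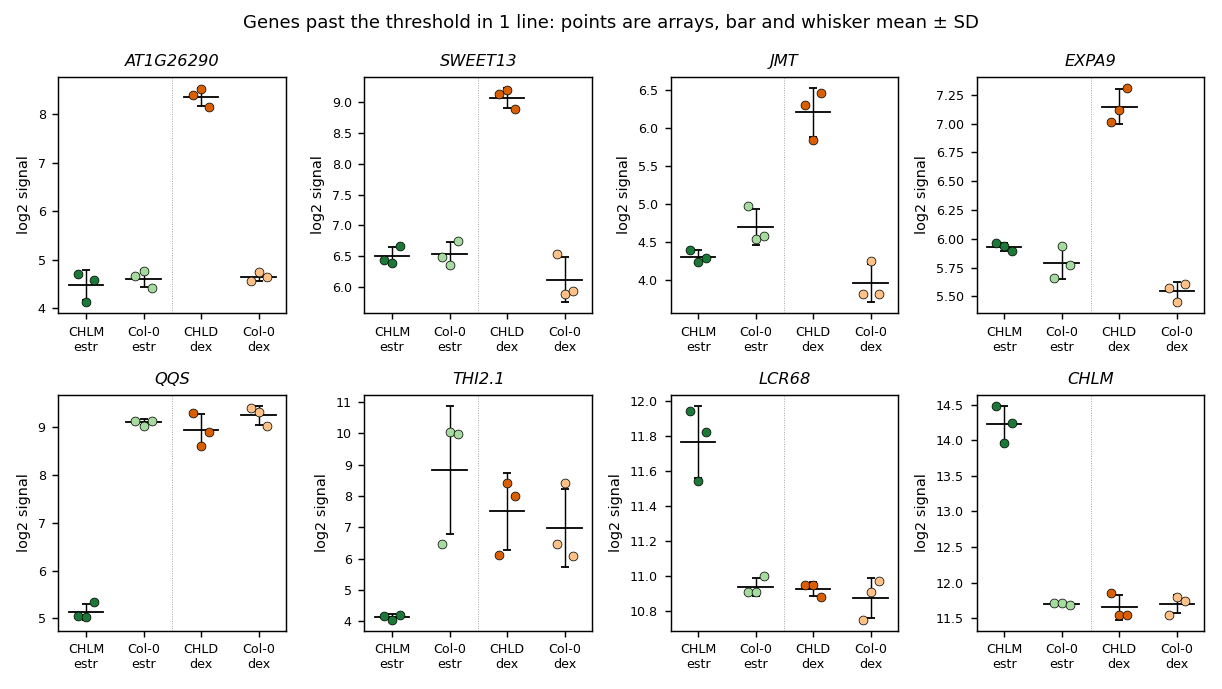
Log2 signal of 8 genes past the threshold in 1 line, 1 panel per gene, with the CHLM line and Col-0 under estradiol (estr) left of the dotted line and the CHLD line and Col-0 under dexamethasone (dex) right of it. Points are arrays, bars group means and whiskers 1 SD over 3 arrays; the top row stands out in the CHLD line and the bottom row in the CHLM line, and for THI2.1 one Col-0 estradiol array reads 6.48.

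Further CHLM-only rises were AT2G35750, which read 8.73, 8.33 and 8.28 in the CHLM line and 7.34, 7.04 and 7.22 in its control (CHLD effect -0.02), and AT1G22690, with a CHLM effect of 0.98 and a CHLD effect of -0.25. AT5G51950 had a CHLM effect of 0.97 and a CHLD effect of 0.25, but the lines were nearly level, at a direct difference of -0.03. Its Col-0 groups differed by -0.75 (Col-0 estradiol minus Col-0 dexamethasone, limma adjusted p = 0.00622), so its difference of effects rests on the Col-0 groups. These 3 genes kept their call without each array. Among the falls, AT1G62500 (CHLM effect -1.17, CHLD effect -0.24) and AT1G14730 (CHLM effect -0.66, CHLD effect 0.24) also kept it, although the CHLD effect of AT1G14730 passed without Col-0 dexamethasone replicate 1 (0.33, limma adjusted p = 0.047).

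The other 3 CHLM-only falls chosen by size lost their call without any of several arrays. AT1G64360 (CHLM effect -1.24) lost its call without CHLD replicate 1 or 2, Col-0 estradiol replicate 2 or 3, or Col-0 dexamethasone replicate 2 or 3 (limma adjusted p between 0.057 and 0.101). AT1G18720 (CHLM effect -0.48) lost it without CHLM replicate 2, Col-0 estradiol replicate 3, CHLD replicate 2 or 3, or Col-0 dexamethasone replicate 2 or 3 (limma adjusted p between 0.0544 and 0.0687). AT5G11990 (CHLM effect -0.43) lost it without CHLM replicate 2, CHLD replicate 1 or 3, or Col-0 dexamethasone replicate 1 or 2 (limma adjusted p between 0.0563 and 0.073).

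Genes that moved the same way by different amounts all moved further in the CHLD line. Across the 9, CHLM effects ran between -1.05 and 1.31 and CHLD effects between -2.14 and 2.77. AT1G76240 read 8.96, 9.04 and 9.11 in the CHLM line and 8.28, 8.30 and 8.40 in its control, and 11.08, 10.81 and 10.89 in the CHLD line and 8.41, 8.13 and 8.07 in its control, a difference of -2.01 ± 0.15 (limma adjusted p = 2.12e-06). AT3G44970 rose by 1.31 in the CHLM line and by 2.77 in the CHLD line. AT1G08230 fell by 0.54 in the CHLM line and by 1.69 in the CHLD line.

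IAA29, an Aux/IAA repressor of auxin signalling, fell in both lines. It read 6.16, 5.83 and 6.05 in the CHLM line and 7.10, 6.96 and 7.14 in its control, and 4.66, 4.68 and 5.11 in the CHLD line and 7.14, 7.13 and 6.60 in its control. The fall was deeper in the CHLD line, by 1.09 ± 0.22 (limma adjusted p = 0.0235). That call was lost without CHLM replicate 1 or 3, Col-0 estradiol replicate 2, CHLD replicate 1 or 2, or Col-0 dexamethasone replicate 1 or 2 (limma adjusted p between 0.0565 and 0.0786).

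The difference of effects equals the direct difference of the lines minus that of the Col-0 groups, so a gene can pass through either side. For 239 of the 256 probe sets the CHLM and CHLD lines also differed directly (4.02% of all probe sets did so), and in none of these 239 with the opposite sign. The 256 were selected on a quantity that contains the direct difference, so this overlap is partly built in by the selection. The Col-0 groups differed past the threshold on 11 probe sets in all (0.0484%), which does not show that they were level on the others. For 11 of the 256 probe sets the lines lay within 1.5-fold of each other by the 95% interval, and 5 of these had a gene: EXPB1, ECS1, AT4G33980, AT5G51950 and AT1G49200. AT4G33980 read 3.46, 3.92 and 3.85 in the CHLM line and 3.79, 3.66 and 3.85 in the CHLD line, while the controls read 4.55, 4.40 and 4.19 under estradiol and 5.47, 5.52 and 5.27 under dexamethasone. The lines were level and the wild types were not (Col-0 estradiol minus Col-0 dexamethasone -1.04 ± 0.13, limma adjusted p = 0.00678), and an effect of the inducer on Col-0 and other differences between these control groups cannot be told apart. Both lines read low on the scale for this gene, where the lowest value was 2.39 and the median level of all probe sets 6.29. Whether dim signal made the lines look level was not tested.

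Gene lists were next described by their members, beside all 13355 genes with a probe set of their own, of which 23 had a positive and 97 a negative difference past the threshold (0.899% in all) around a median difference of 0.03. In the magnesium branch of chlorophyll synthesis 3 of 13 listed genes were measured. CHLM passed the threshold. CHLI2, a subunit of magnesium chelatase, read 9.50, 9.64 and 9.56 in the CHLM line and 9.02, 9.20 and 9.13 in its control, and 9.43, 9.19 and 9.15 in the CHLD line and 8.96, 9.0 and 8.82 in its control. It rose in both lines, by 0.45 and 0.33, and PORB, a protochlorophyllide oxidoreductase, fell in both, by 0.40 and 0.30, with differences of 0.12 and -0.10. Of the 5 measured genes of early tetrapyrrole synthesis (among them HEMA2, a glutamyl-tRNA reductase), 0 passed for the difference in limma (0 at an unadjusted p under 0.05) or for either effect, and the differences ran between 0.00 and 0.25. Over all 22746 probe sets, 2160 had an unadjusted limma p under 0.05 for the difference.

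Jasmonate genes were spread more widely than any other list with 3 or more members. Of 7 measured, THI2.1 and JMT had a negative difference and 0 a positive one, around a median of -2.63. The others of the list did not pass: MYC3 and MYC4, transcription factors of jasmonate signalling, had differences of 0.00 and 0.47, JRG21 had -1.32, and the near-identical defensin genes PDF1.2 and PDF1.2b had -3.09 and -2.86. PDF1.2 read 5.17, 5.10 and 5.80 in the CHLM line and 5.65, 9.38 and 9.34 in Col-0 under estradiol, and 5.31, 4.74 and 6.62 in the CHLD line and 5.14, 5.26 and 5.31 in Col-0 under dexamethasone. As for THI2.1, replicates 2 and 3 of Col-0 under estradiol stood above all other arrays and replicate 1 did not. Without that replicate 4 of the 7 passed, all negative, with limma adjusted p of 2.77e-04 for THI2.1, 9.03e-05 for PDF1.2 and 3.65e-05 for PDF1.2b.

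Sugar and starch genes contributed QQS and SWEET13, described above, out of 5 measured, with differences of -0.48 for SWEET11 and -0.43 for APL3 (a subunit of the starch-synthesis enzyme ADP-glucose pyrophosphorylase) and 0.42 for SBE2.2 (a starch branching enzyme), none past the threshold. In the expansin and xyloglucan list, 3 of 27 measured genes passed (11.1%), EXPA9, EXPA8 and EXPB1, all negative, around a list median of -0.02. Without Col-0 estradiol replicate 1, XTH32, of the xyloglucan-modifying enzymes, passed as well with a positive difference of 0.69 (limma adjusted p = 0.0476), against 0.67 with all arrays (limma adjusted p = 0.0645). Among 12 auxin genes only IAA29 passed, and among 3 clock genes only AT4G33980. GI, a clock component, fell by 0.69 in the CHLM line and by 0.74 in the CHLD line with a difference of 0.05, and COR27 had a difference of 0.31 with all arrays and 0.88 without Col-0 estradiol replicate 1 (limma adjusted p = 0.0475).

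The 3 measured genes of the flavonoid list rose in the CHLD line, with no difference past the threshold. CHIL, described above, is not in this list. DFR, which makes leucoanthocyanidins, read 6.76, 7.16 and 6.95 in the CHLM line and 6.05, 6.81 and 6.94 in its control, and 7.10, 7.05 and 7.07 in the CHLD line and 5.17, 5.18 and 6.15 in its control. Of 3 measured members, 0 passed in the CHLM line and 3 rose in the CHLD line (6.07% of all probe sets did so). The differences were -1.22 for DFR, -0.75 for UF3GT and -0.27 for AT5MAT, with limma adjusted p of 0.159, 0.377 and 0.77. Unadjusted, 2 of the 3 had a limma p under 0.05 for the difference (2160 of all 22746 probe sets did so). DFR passed without Col-0 dexamethasone replicate 3 (limma adjusted p = 0.0165) or Col-0 estradiol replicate 1 (limma adjusted p = 0.0127). With all arrays the lines differed directly by -0.12 for DFR (limma adjusted p = 0.861). Its Col-0 groups differed by 1.10 (Col-0 estradiol minus Col-0 dexamethasone, limma adjusted p = 0.121), so its difference of effects lies mostly on the Col-0 side.

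The chloroplast genome showed no difference of effects past the threshold although some of its genes moved. Of 69 measured plastid-encoded genes, 13 rose and 3 fell in the CHLM line (5.44% and 4.30% of all probe sets did so), and 10 rose and 5 fell in the CHLD line (6.07% and 6.34%). The differences of all 69 lay between -0.28 and 0.35 around a median of 0.04, and 0 had an unadjusted limma p under 0.05 (2160 of all 22746 probe sets did so). rbcL, the large subunit of Rubisco, read 9.65, 9.96 and 9.68 in the CHLM line and 9.29, 9.36 and 9.14 in its control, and 9.77, 9.56 and 9.72 in the CHLD line and 9.29, 9.04 and 9.19 in its control. psbA, which encodes the D1 protein of photosystem II, read 9.75, 9.51 and 9.61 in the CHLM line and 10.20, 10.27 and 10.11 in its control, and 9.67, 9.79 and 9.82 in the CHLD line and 10.63, 10.63 and 10.27 in its control. Each line was clear of its control for these genes: rbcL rose by 0.50 in the CHLM line and by 0.51 in the CHLD line, and psbA fell by 0.57 and by 0.75.

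With all arrays, no difference passed in limma in the lists of cold and abscisic acid response (6 measured), carbon starvation (5), senescence (2), iron regulation (3), reactive oxygen (2), nuclear photosynthesis (10), mitochondrion-encoded genes (16), tubulin (7), ATG8 (9) or glutathione S-transferases and UDP-glycosyltransferases (61). Of these 121 genes, 13 had an unadjusted limma p under 0.05 for the difference, beside 2160 of all 22746 probe sets. Without Col-0 estradiol replicate 1, LTI30 of the cold list passed with 2.14 (limma adjusted p = 0.0179, 1.17 with all arrays), and AT5G39520 of the starvation list passed with 1.40 (limma adjusted p = 0.0314, 0.15 with all arrays). HIS1-3, a drought-induced linker histone, had effects of -2.33 in the CHLM line and -1.62 in the CHLD line (difference -0.70 ± 0.39). AT3G15450 of the starvation list had -1.46 and -2.19 (difference 0.73 ± 0.40). WRKY53, a regulator of senescence, had 0.60 and 1.09 (difference -0.49 ± 0.23), and it passed without Col-0 estradiol replicate 1 (difference -0.71, limma adjusted p = 0.0361). BHLH101, an iron-deficiency transcription factor, had -0.86 and -0.53, and STZ, a zinc-finger repressor of stress responses, had -0.70 and 0.61 with a difference of -1.32 ± 0.56. Limma adjusted p of the difference with all arrays was between 0.45 and 0.812 for HIS1-3, AT3G15450, WRKY53, BHLH101 and STZ. It was 0.767 for LTI30 and 0.986 for AT5G39520. The lowest p in the other lists belonged to LHCB4.3 (difference 0.25), psbK (-0.28), TUB1 (0.54), APG8A (-0.29), UGT76B1 (-1.42) and orfX (0.39). For UGT76B1, a glycosyltransferase, the Col-0 estradiol arrays read 4.08, 5.42 and 5.48, and it passed with array weights (limma adjusted p = 0.0464) and without Col-0 estradiol replicate 1 (limma adjusted p = 0.00632). Of the salicylate defence list, 0 of 8 genes were measured by a probe set of their own.

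**Figure D4:**
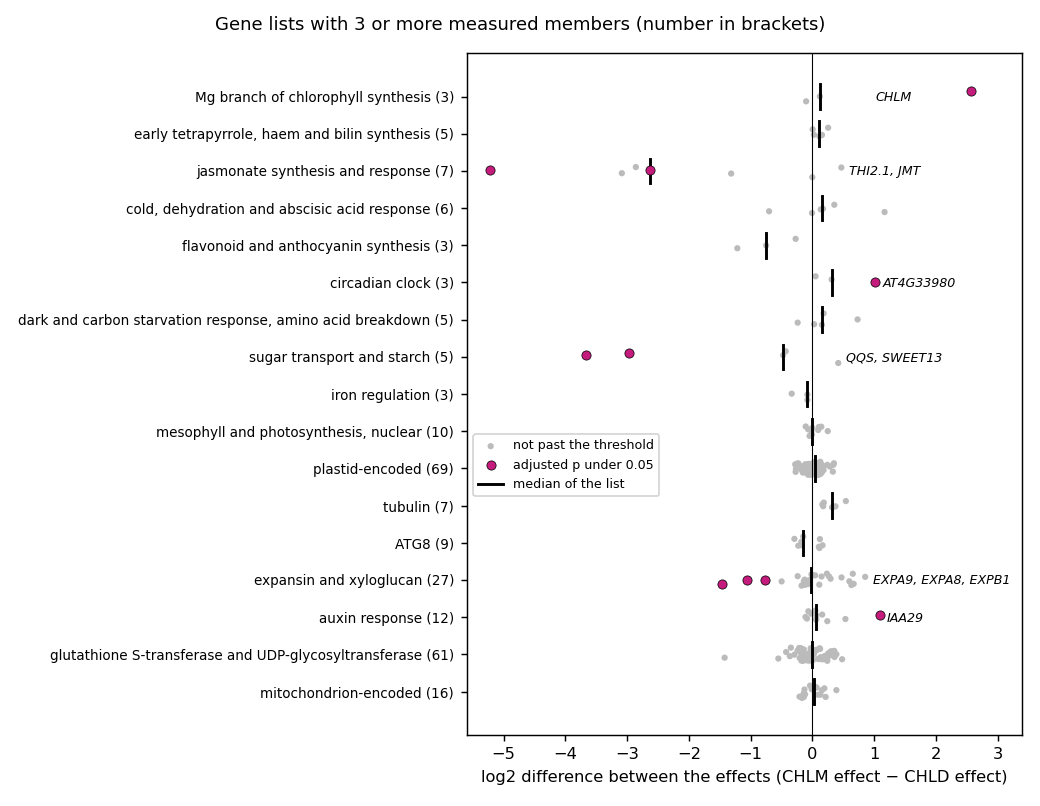
Log2 difference of effects (CHLM effect minus CHLD effect, x axis) for each measured member of the gene lists with 3 or more measured members (y axis), with coloured points for members past the threshold, which are named, and a bar at the list median. The plastid list of 69 stays between -0.28 and 0.35, while the jasmonate list has a median of -2.63.

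Calls were lost or gained with single arrays. Of the 256 calls, 160 held without each of the 12 arrays in turn, and all 256 kept their direction. By class, 114 of 176 CHLD-only, 21 of 49 CHLM-only, 19 of 22 opposite and 6 of 9 same-direction calls held. Without replicate 1 of Col-0 under estradiol, 492 probe sets passed (126 positive, 366 negative), of which 253 were shared with the full set in the same direction, 239 were added and 3 of the 256 were lost.

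**Figure D5:**
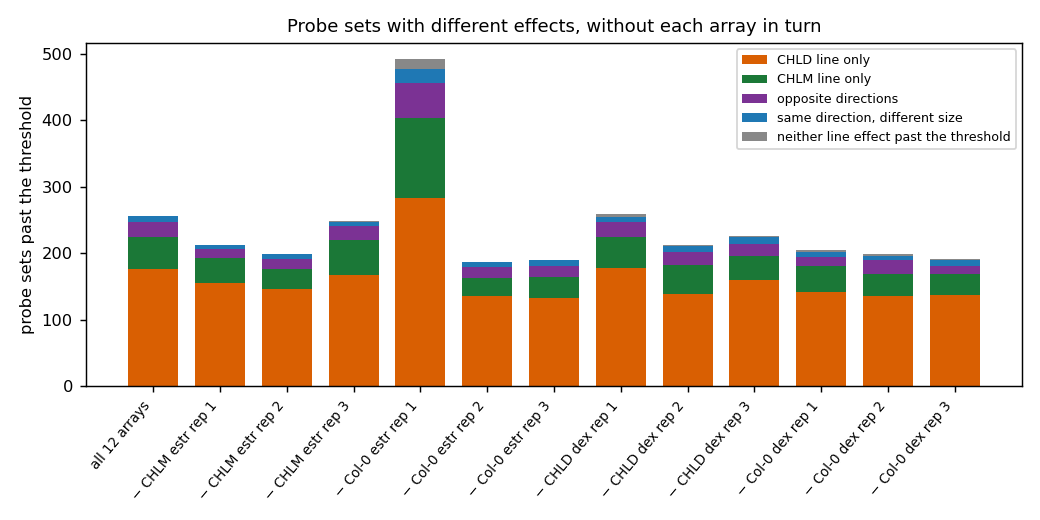
Number of probe sets whose effects differ past the threshold (y axis, stacked by class) with all 12 arrays and without each array in turn (x axis; estr, estradiol; dex, dexamethasone; rep, replicate). The total is 256 with all arrays, 492 without Col-0 estradiol replicate 1, and as low as 187 without another array.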

How the data were processed

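The authors deposited 1 table of log2 signal values, which the submitters' processing notes credit to Affymetrix Expression Console. Not given in the sources used here are the version, summary method and normalization. Base 2 was assumed because values lay between 2.39 and 14.49. Values were used as deposited. Without the 63 AFFX controls, 22746 probe sets were tested. The platform annotation gave 1 gene to 13513 probe sets, several to 503 and none to 8730, and 13436 were found in the RefSeq table (TAIR10.1). For the 147 genes with more than 1 probe set, the brightest stands for the gene.

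A 4-group linear model was fitted with limma 3.58.1 in R 4.3.3 (eBayes without trend, degrees of freedom 8 residual and 6.05 prior). Benjamini-Hochberg adjustment of two-sided p-values ran over all probe sets of a contrast. They measure the spread between samples labelled as biological replicates, and 3 arrays per group limit the precision. The fit was tested on simulated data with known changes in the CHLM group. Those data held independent noise and no array lying apart, so they do not bear on the Col-0 estradiol array that lay apart here.

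Named genes were the 10 largest differences of each sign, the opposite class, the 5 largest rises and falls of each 1-line class whose other effect stayed within 1.5-fold, the 3 largest of each sign of the same-direction class, and up to 4 members past the threshold of each of 21 lists, the 2 largest of each sign, or the member with the smallest p. The members and lists were chosen with earlier results of these data known. Alternatives were a replicate block, a variance trend, robust eBayes, quantile normalization, array weights, a filter on dim probe sets and leaving out each array. Promoter sequences and motifs were not analysed here.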

Additional observations from a re-analysis of the deposited data

Results flagged for a closer look

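The effects differed between the lines for 256 probe sets, by the test of the difference itself. Among named genes, those with line effects past the threshold in opposite directions were CHI with a log2 difference of -2.39, AT1G65920 with -2.18, AT3G51660 with -1.22, AT1G26450 with -1.10, ECS1 with -0.89, EXPB1 with -0.77 and P1R1 with 0.85.

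A signal outside the main measurement came from the AFFX control probe set for 25S ribosomal RNA. It read 12.33, 11.86 and 12.18 in the CHLM line, against 11.74, 10.43 and 10.37 in Col-0 under estradiol. It read 11.28, 11.46 and 11.21 in the CHLD line, against 11.10, 11.26 and 11.40 in Col-0 under dexamethasone. All 3 CHLM arrays were above their control, and Col-0 estradiol replicate 1 lay above replicates 2 and 3. Its part in the differences was not tested. The 3′ minus 5′ differences of the GAPDH control probe sets, a measure of RNA quality, were 1.24, 0.84 and 1.28 in the CHLM line, 1.29, 1.02 and 1.14 in Col-0 under estradiol, 1.29, 1.10 and 1.07 in the CHLD line and 1.19, 1.22 and 1.2 in Col-0 under dexamethasone, and these groups overlapped. The same log2 differences were larger for the other controls, at 3.47 to 3.99 for actin and 1.66 to 2.06 for ubiquitin over the 12 arrays.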

How the results depend on the processing

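With array weights, which gave Col-0 estradiol replicate 1 the lowest weight (0.43), 447 probe sets passed (109 positive, 338 negative): 41 opposite, 110 CHLM only (70 with the CHLD effect within 1.5-fold), 270 CHLD only, 17 same direction and 9 with neither effect past its threshold. The last class held 0 in the reported fit, 3 after quantile normalization and 1 each with a replicate block and a variance trend. Other totals were 267 with a variance trend, 253 with robust eBayes, 262 after quantile normalization and 237 of 14388 probe sets with mean log2 of at least 5. With the replicate number as a block, 286 passed (51 positive, 235 negative). Deviations from the group means correlated at -0.13 to 0.24 for same-numbered arrays and at -0.24 to 0.22 for arrays with different numbers. These ranges overlap, so they do not settle whether the numbers pair the samples. Without each array in turn, totals ran over 187 to 492, positive 32 to 126, negative 151 to 366 and at least 2-fold 124 to 256. The CHLM effect ran over 1156 to 2090 and the CHLD effect over 1563 to 3626. Opposite ran over 13 to 53, CHLM only 27 to 120 (within 1.5-fold 20 to 79), CHLD only 132 to 283 (within 1.5-fold 97 to 209), same direction 6 to 21 and neither 0 to 15. Of 41 named genes past the threshold, 29 held without each array, and 38 under all those of the other 6 settings that tested them. The exceptions were AT3G62950 and THI2.1 with robust eBayes and AT2G47880 with the block (limma adjusted p = 0.0694) and the trend (0.0525). JMT, AT3G19430, AT5G51950, AT4G33980, AT3G14395 and AT5G11990 had a mean log2 below 5, so the filter on dim probe sets did not test them. No named difference reversed. The causes were not tested.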

Other observations

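Leaving out Col-0 estradiol replicate 1, which the correlations set apart, brought out 239 further probe sets, 107 of them with 1 gene. The following were chosen after their values were seen. PDF1.2 and PDF1.2b had differences of -4.32 (limma adjusted p = 9.03e-05) and -4.23 (limma adjusted p = 3.65e-05) without that array, against -3.09 and -2.86 with all arrays. JAL23, a jacalin-related lectin, read 6.97, 6.73 and 6.87 in the CHLM line and 7.47, 9.06 and 9.03 in Col-0 under estradiol, and 7.19, 7.99 and 8.31 in the CHLD line and 6.74, 7.99 and 7.32 in Col-0 under dexamethasone. Its difference was -2.67 without the array and -2.14 with it.

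In the other direction, LTI30, a dehydrin, read 8.05, 7.59 and 8.64 in the CHLM line and 10.63, 7.61 and 7.79 in Col-0 under estradiol, and 6.93, 7.63 and 7.84 in the CHLD line and 8.52, 9.38 and 9.75 in Col-0 under dexamethasone. Replicate 1 of Col-0 under estradiol was the highest of all 12 arrays, and the difference was 2.14 without it and 1.17 with it. SWEET4, a sugar transporter, read 8.05 on that array against 5.86 and 5.90 on the other replicates of its group, with a difference of 1.19 without it and 0.46 with it. COR27 read 6.05 on that array against 4.43 and 4.25, with a difference of 0.88 without it and 0.31 with it.

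Of 5913 pairs of neighbouring protein-coding genes with both measured, 118 held at least 1 gene past the threshold for the difference, and in 5 pairs both passed. AT3G19430 and AT3G19440 had CHLM effects of 0.09 and 0.42 and CHLD effects of 3.21 and 1.28. AT1G28570 and AT1G28580 had CHLD effects of 1.61 and 1.52, and AT5G47540 and AT5G47550 had 1.09 and 1.12. AT3G06750 and AT3G06760 had CHLD effects of 0.53 and 1.63, and AT3G51660 and AT3G51670 had 0.60 and 0.50. In all 5 pairs both genes rose in the CHLD line, as did most of the 256 called probe sets (146 of the CHLD-only class and 17 of the opposite class). Among all 13355 genes with a probe set of their own, 0.899% passed for the difference. Whether neighbours passed together more often than other genes was not tested.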
